A study of Homo sapiens with 12 samples.

Results

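The p53 target genes are genes whose transcription is known to be raised directly by p53, the stress-activated transcription factor, and 44 of them were followed here among the 60617 gene identifiers of the deposited counts. They were taken from a written list of established direct targets, each matched by symbol to 1 Ensembl gene, and 43 of the 44 were abundant enough to be tested. The cells were HCT 116p53-/-, a human colon cancer line that lacks p53, and a sub-line of it that the labels call HCT 116p53-/- RPL3 KO and the study calls uL3ΔHCT 116p53-/-, described as stably silenced for uL3, the ribosomal protein that RPL3 encodes. Each line received 5 nM actinomycin D (Act D) for 24 h or vehicle, and each of the 4 groups had 3 libraries, described as biological replicates, so that all 12 libraries lack p53 by their genotype. Whether the sub-line is a single clone is not given in the sources used here.

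p53 binds DNA as a tetramer and raises genes that stop the cell cycle, open the way to apoptosis, repair DNA and buffer metabolic stress, while its target MDM2 feeds back to degrade it. At low concentration Act D blocks RNA polymerase I, and in cells with p53 the released ribosomal proteins bind MDM2 and stabilise p53. Many of these genes also answer to other factors, among them p63, p73, ATF4, ATF3 and the EGR and NF-kB families, so that their RNA can be measured without p53.

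The total of expected counts per library was between 10087925 and 21138886. By CPM (counts normalized to the size of each library) RPL3 itself was not lower in the libraries labelled RPL3 KO. It was 1188 to 1337 CPM with vehicle against 1121 to 1151 CPM in HCT 116p53-/- cells, with a log2 difference of 0.13 (adjusted p = 0.155). Per length it was lower there without overlap, at 641, 545 and 583 TPM with vehicle against 826, 720 and 781 TPM. The direction thus depends on the scaling. By either measure RPL3 RNA stayed abundant in the libraries labelled RPL3 KO, so that a knockout does not show as its loss. These libraries also differed from HCT 116p53-/- cells far beyond p53 targets, with 71.3% of all genes tested past the threshold with vehicle. Of the epithelial markers, CDH1 (E-cadherin) was 0 to 0.701 CPM in the 6 libraries labelled RPL3 KO and 64.3 to 76.6 in the 6 others, CDX2 was at most 0.343 against at least 14.2 CPM, and 4 of 11 colon epithelial markers were above the floor of 3 counts in every library labelled RPL3 KO of a group against 6 of 11 in HCT 116p53-/- groups. KRT18 (keratin 18) and LGR5 were instead higher there, at 804 to 984 against 576 to 622 CPM and at 1.61 to 4.19 against at most 0.0676 CPM. The sum of the 11 was 1561 to 1956 against 1916 to 2142 CPM. VIM (vimentin) led the 7 mesenchymal markers, of which 5 or 6 were above that floor in the groups labelled RPL3 KO and 4 or 5 in the others. Their sum was 2258 to 2574 CPM in the libraries labelled RPL3 KO and 28 to 59.7 in the others. COL1A1, also of that list, was lower with the RPL3 KO label, at 3.25 to 5.62 against 6.61 to 12.1 CPM. The part of this difference of the lines in the values below was not tested, and fewer expressing cells and less RNA per cell cannot be told apart in bulk RNA.

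RefSeq promoter windows (GRCh38.p14, 250 bases before to 50 after a gene's start) were matched for 33 of the 44 genes. A 10-base unit of the p53 response element with no mismatch, searched on both strands, lay in a window of 8 of the 33 genes (24.2%) and in 8.06% of 27305 genes with a window. Pairs of units at most 13 bases apart with at most 2 mismatches, which may overlap the first search, lay in windows of 3 genes (9.09%, against 1.81% of all genes), those of AEN, DDB2 and FAS. Mismatches were allowed only outside the centre of a unit, which had to read C, A or T, A or T, G. They are shown because their pairs can be read beside the values below, with the pair in capitals, and BTG2 is shown as the gene with the largest Act D response, whose window held no match. The AEN window is chr15:88621090-88621389 (plus strand) and its pair lies from -34 to -15 from the start, that of DDB2 is chr11:47214724-47215023 (plus strand) with a pair without a mismatch from 6 to 26, that of FAS is chr10:88991181-88991480 (plus strand) with a pair from -122 to -103, and that of BTG2 is chr1:203305269-203305568 (plus strand). FAS also had windows at chr10:88990548-88990847 and chr10:88990664-88990963, and DDB2 another at chr11:47214204-47214503, all without a match. These belong to starts farther upstream, so that the pairs of FAS and DDB2 lie downstream of those starts.
AEN: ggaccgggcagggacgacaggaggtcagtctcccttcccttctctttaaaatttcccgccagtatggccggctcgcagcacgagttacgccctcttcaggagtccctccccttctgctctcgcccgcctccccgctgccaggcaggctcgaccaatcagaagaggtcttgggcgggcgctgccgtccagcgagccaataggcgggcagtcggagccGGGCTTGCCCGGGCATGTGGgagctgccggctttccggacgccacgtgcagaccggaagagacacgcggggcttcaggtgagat
DDB2: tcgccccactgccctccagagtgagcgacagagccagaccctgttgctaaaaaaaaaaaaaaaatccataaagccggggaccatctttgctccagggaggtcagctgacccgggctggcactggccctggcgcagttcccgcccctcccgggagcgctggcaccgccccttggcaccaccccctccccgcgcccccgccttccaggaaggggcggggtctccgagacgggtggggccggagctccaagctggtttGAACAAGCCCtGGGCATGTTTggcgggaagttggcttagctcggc
FAS: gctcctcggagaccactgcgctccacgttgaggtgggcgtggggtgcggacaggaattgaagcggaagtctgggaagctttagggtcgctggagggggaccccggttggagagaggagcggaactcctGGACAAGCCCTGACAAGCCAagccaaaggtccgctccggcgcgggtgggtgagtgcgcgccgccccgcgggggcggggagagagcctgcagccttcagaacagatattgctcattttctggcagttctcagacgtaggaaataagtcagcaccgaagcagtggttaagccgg
BTG2: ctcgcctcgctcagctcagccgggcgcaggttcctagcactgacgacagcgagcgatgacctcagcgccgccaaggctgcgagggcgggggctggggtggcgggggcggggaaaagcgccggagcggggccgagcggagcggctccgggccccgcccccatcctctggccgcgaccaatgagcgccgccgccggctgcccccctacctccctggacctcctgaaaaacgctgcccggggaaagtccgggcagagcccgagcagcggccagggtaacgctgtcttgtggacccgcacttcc
A match is a description of letters and not a site shown to be bound. ABHD4, FDXR, PLK2, RPS27L and SESN1 held a single unit, and CDKN1A, whose known p53 elements lie farther upstream than this window, held no match.

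With Act D most p53 target genes rose in HCT 116p53-/- cells although these cells lack p53. Of the 43 genes, 29 rose and 2 fell past an adjusted p of 0.05 (quasi-likelihood test of edgeR, adjusted by Benjamini and Hochberg's method over the 15692 genes tested, which also gives every other adjusted p), which is 72.1% of them beside 18.7% of all genes tested (7.59% higher and 11.1% lower). The median log2 fold change was 0.52 over the p53 targets and 0.02 over all genes tested, and 15 of the 29 rose by a log2 fold change of 1 or more. In 36 of the 43 the 3 Act D libraries did not overlap the 3 vehicle libraries (83.7%, beside 38.2% of all genes tested). The libraries labelled RPL3 KO had 7 genes that rose and 5 that fell (27.9%, beside 11.9% of all genes tested, of which 3.51% rose and 8.4% fell), with a median of 0.16 against 0.03, and 21 did not overlap (48.8%, beside 27.6%). When the counts were scaled by library size alone, the split there was 5 higher and 6 lower.

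**Figure D1:**
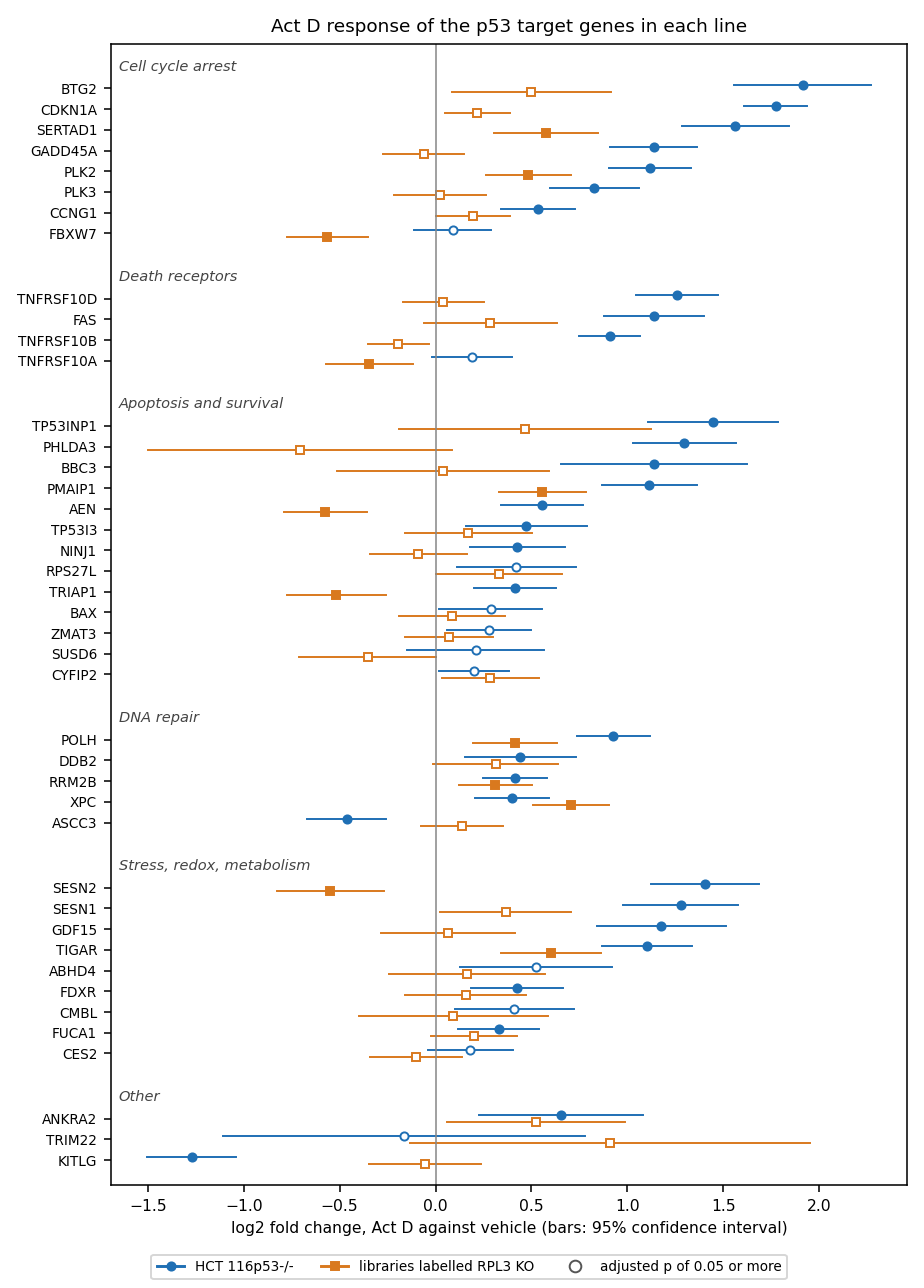
Log2 fold change of 42 p53 target genes with Act D against vehicle (x axis) in HCT 116p53-/- cells (circles) and in the libraries labelled RPL3 KO (squares), grouped by role, with 95% confidence intervals; filled symbols passed an adjusted p of 0.05. SPATA18 is left out because it had no count in the libraries labelled RPL3 KO. Most circles lie right of 0, up to 1.91 for BTG2, while squares lie on both sides of it.

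The difference of the responses was tested as an interaction, the response of the libraries labelled RPL3 KO minus that of HCT 116p53-/- cells. It was lower for 19 genes and higher for 2 (48.8%, beside 6.53% of all genes tested, of which 3.23% were lower and 3.3% higher), with a median of -0.52 against -0.01. Of the 29 genes that rose in HCT 116p53-/- cells, 17 had a lower response past the threshold in the other line. They were picked by the same rise that the interaction subtracts, so that this count leans toward lower responses. The matching share of all genes that rose there was not computed. PLK2, SERTAD1, PMAIP1, XPC, POLH, RRM2B and TIGAR rose in both lines by CPM. TIGAR's mean TPM was lower with Act D in the libraries labelled RPL3 KO, which rested on a high value of vehicle replicate 1 (7.5 TPM). AEN, TRIAP1 and SESN2 rose in HCT 116p53-/- cells and fell in the libraries labelled RPL3 KO, and 10 genes passed in neither line.

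**Figure D2:**
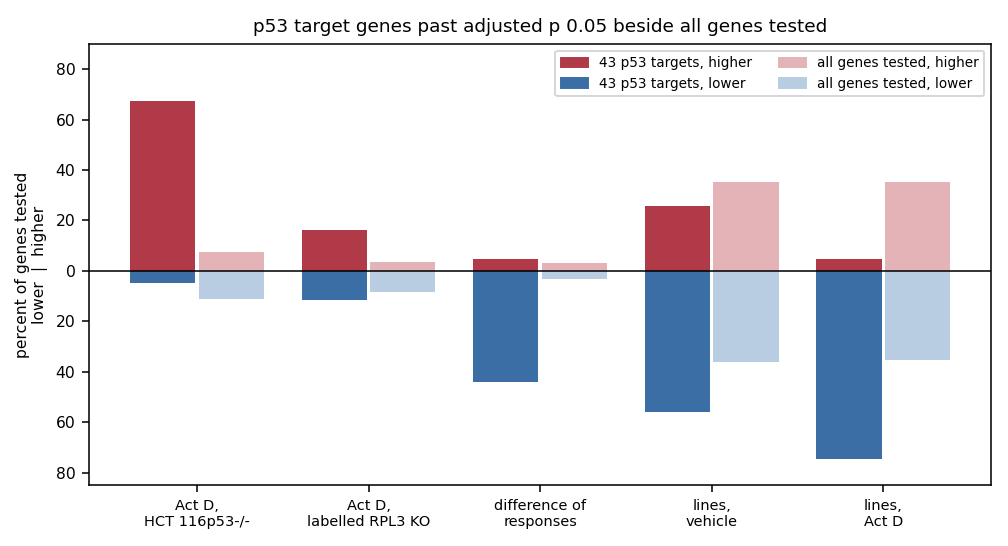
Percent of genes past an adjusted p of 0.05 (y axis, higher above 0 and lower below it) in each of the 5 comparisons, for the 43 p53 target genes tested (dark bars) and for all genes tested (pale bars). With Act D in HCT 116p53-/- cells 67.4% of the p53 targets rose beside 7.59% of all genes, and in the interaction 44.2% were lower beside 3.23%.

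Of the 8 genes of cell cycle arrest, 7 rose with Act D in HCT 116p53-/- cells, and 2 rose and 1 fell in the libraries labelled RPL3 KO. CDKN1A encodes p21, the cyclin-dependent kinase inhibitor that carries out p53-dependent arrest (chr6:36676460-36687337, hg38). It was 154, 173 and 159 CPM with vehicle and 577, 563 and 523 CPM with Act D in HCT 116p53-/- cells. Libraries labelled RPL3 KO stood at 72.3, 76.6 and 73.9 CPM with vehicle and 86.8, 82.2 and 90.2 CPM with Act D. Act D libraries lay above vehicle libraries in both lines without overlap, but only in HCT 116p53-/- cells was the difference past the threshold (log2 fold change 1.77 ± 0.08 (SE), adjusted p = 4.02e-10, against 0.22 ± 0.08, adjusted p = 0.0881). The responses differed by -1.56 (adjusted p = 1.06e-06). The value of 0.22 passed with DESeq2 and with upper-quartile scaling. By TPM the groups labelled RPL3 KO overlapped, at 17.7 to 22.3 with vehicle and 21.1 to 24.6 with Act D.

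BTG2, an antiproliferative cofactor of mRNA deadenylation, had the largest rise of the p53 targets tested in HCT 116p53-/- cells. Its CPM were 15.1, 17.1 and 13.7 with vehicle and 61.3, 56.3 and 55.4 with Act D (1.91 ± 0.17, adjusted p = 6.97e-07). The libraries labelled RPL3 KO had CPM of 6.27, 10.1 and 8.10 and then 15.1, 11.5 and 7.77, so that the groups overlapped (0.50 ± 0.20, adjusted p = 0.113). That value ranged from 0.22 to 0.69 over the alternatives and passed without a filter, without vehicle replicate 2 and without Act D replicate 3 (adjusted p down to 0.0238). The responses differed by -1.41 (adjusted p = 0.00334). SERTAD1, a cofactor of cyclin D and E2F activity, was 21, 26.1 and 22.7 CPM with vehicle and 71.8, 71.5 and 62.8 CPM with Act D in HCT 116p53-/- cells. In the other line it was 39.0, 53.1 and 41.6 CPM with vehicle and 75.7, 55 and 68.5 CPM with Act D. It rose without overlap in both, by 1.56 ± 0.13 (adjusted p = 4.48e-07) and by 0.57 ± 0.13 (adjusted p = 0.00657), although without Act D replicate 1 the second call was lost (adjusted p = 0.0529). The second rise was smaller than the first (interaction -0.99, adjusted p = 0.00369).

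GADD45A, a growth arrest protein that binds CDK1 and PCNA, was 18.0, 16.4 and 17.5 CPM with vehicle and 36.3, 40.2 and 37.7 CPM with Act D in HCT 116p53-/- cells (1.14 ± 0.11, adjusted p = 1.41e-06). The libraries labelled RPL3 KO already stood at 49.9, 59.5 and 59.9 CPM with vehicle and at 60.9, 52.1 and 48.8 CPM with Act D, overlapping groups (-0.06, adjusted p = 0.759). By CPM all 6 of these libraries lay above the highest of HCT 116p53-/- cells. By TPM they did not, at 20.6 to 29.9 against at most 26.7 TPM. PLK2, a polo-like kinase of the stress response, was 123, 105 and 107 CPM with vehicle and 256, 235 and 238 CPM with Act D, and in the libraries labelled RPL3 KO 57.6, 79.1 and 75.5 and then 101, 100 and 96.5 CPM. It rose in both lines, by 1.12 and 0.48, and more in HCT 116p53-/- cells (interaction -0.63, adjusted p = 0.0143). PLK3, its relative, was 16.4, 16.8 and 17.6 CPM with vehicle and 30.9, 33.5 and 25.6 CPM with Act D in HCT 116p53-/- cells (0.83, adjusted p = 4.68e-05). It was 21.7, 20.3 and 20.9 and then 22.3, 19.5 and 21.9 CPM in the other line, where groups overlapped (0.02, adjusted p = 0.925).

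FBXW7, the substrate receptor of a ubiquitin ligase for cyclin E and MYC, moved otherwise. In HCT 116p53-/- cells it was 36.4, 32.2 and 32.2 CPM with vehicle and 35.1, 35.2 and 37.2 CPM with Act D, which overlap (0.09, adjusted p = 0.573). In the libraries labelled RPL3 KO it was 39.5, 36.5 and 33.5 CPM with vehicle and 23.3, 26.6 and 24.2 CPM with Act D, and fell by 0.56 on the log2 scale (adjusted p = 0.00103, interaction -0.65, adjusted p = 0.00852). By TPM these groups overlapped, at 10.6 to 15.5 with vehicle and 9.38 to 10.8 with Act D. CCNG1 (cyclin G1), the remaining gene, rose in HCT 116p53-/- cells by 0.53 (adjusted p = 0.000471), and stood at 0.20 in the other line (adjusted p = 0.185).

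**Figure D3:**
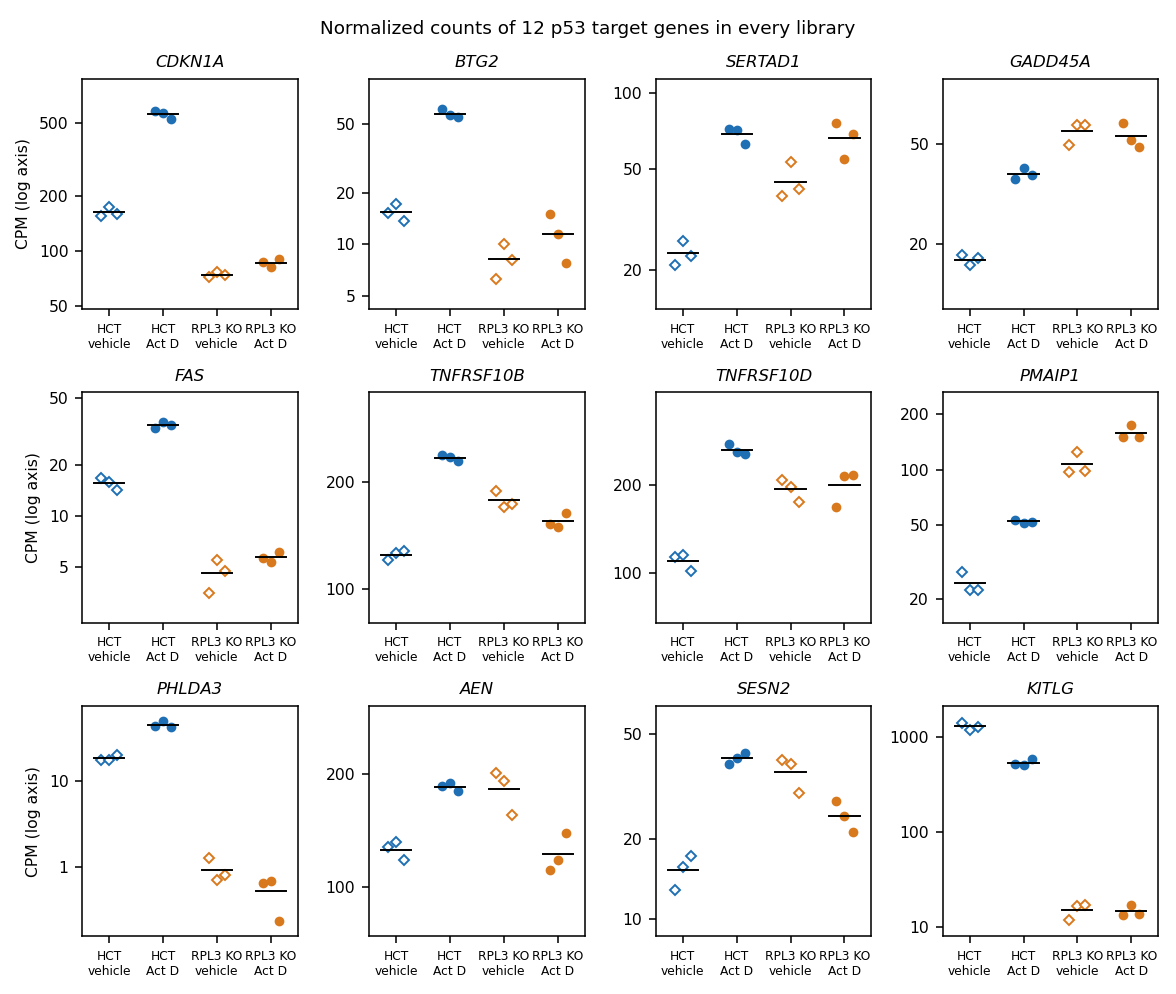
CPM (y axis, log scale) of 12 p53 target genes in each of the 12 libraries, with HCT 116p53-/- in blue, the libraries labelled RPL3 KO in orange, open diamonds for vehicle, filled circles for Act D and a line at the mean of 3 libraries. CDKN1A rises from at most 173 to at least 523 CPM in HCT 116p53-/- cells, SESN2 and AEN cross between the lines, and KITLG falls.

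Of the 4 death receptors tested, 3 rose with Act D in HCT 116p53-/- cells, and in the libraries labelled RPL3 KO none rose and 1 fell. The interaction was lower for all 4. FAS, the receptor of FAS ligand, was 17, 15.9 and 14.4 CPM with vehicle and 33.3, 36.0 and 34.7 CPM with Act D, and in the libraries labelled RPL3 KO 3.53, 5.50 and 4.79 and then 5.67, 5.37 and 6.15 CPM. It rose by 1.14 ± 0.12 (adjusted p = 4.81e-06) in the first line, and the Act D and vehicle values overlapped in the second (0.29 ± 0.16, adjusted p = 0.297). The difference of -0.85 (adjusted p = 0.0184) was lost without vehicle replicate 2 or Act D replicate 1 of the libraries labelled RPL3 KO (adjusted p between 0.0511 and 0.0671).

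TNFRSF10B encodes DR5, a TRAIL receptor that signals death. It was 121, 127 and 128 CPM with vehicle and 239, 236 and 229 CPM with Act D in HCT 116p53-/- cells. Libraries labelled RPL3 KO stood at 189, 171 and 174 CPM and then 153, 150 and 164 CPM. By CPM the groups did not overlap in either line and lay in opposite order, with log2 fold changes of 0.91 ± 0.07 (adjusted p = 3.16e-07) and -0.19 ± 0.07 (adjusted p = 0.107), and the responses differed by -1.10 (adjusted p = 1.62e-05). By TPM the groups labelled RPL3 KO overlapped, at 24.0 to 35.9 with vehicle and 23.2 to 26.8 with Act D. TNFRSF10D, a decoy receptor of TRAIL without a working death domain, was 114, 115 and 101 CPM with vehicle and 275, 258 and 255 CPM with Act D (1.26 ± 0.10, adjusted p = 2.60e-07). In the other line it was 208, 197 and 175 and then 167, 214 and 216 CPM, overlapping groups (0.04, adjusted p = 0.853, interaction -1.22, adjusted p = 9.76e-05). Both receptors were above 100 CPM in every library.

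TNFRSF10A, or DR4, had log2 fold changes of 0.19 (adjusted p = 0.202) and -0.34 (adjusted p = 0.0448), and the latter call was lost when any of 4 single libraries was left out (adjusted p up to 0.162). Its interaction of -0.54 (adjusted p = 0.0349) was lost when any of 10 single libraries was left out (adjusted p up to 0.0984). TNFRSF10C, the other decoy, was at most 0.799 CPM in any library and was not tested. RSEM's posterior SD of its count reached 30.9% of the count, and other genes share up to 16.9% of its exon bases on the same strand.

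Of the 13 genes of apoptosis and survival, 8 rose in HCT 116p53-/- cells and none fell, and in the libraries labelled RPL3 KO 1 rose and 2 fell. PMAIP1 encodes NOXA, a BH3-only protein that neutralises MCL1. It was 28.1, 22.3 and 22.2 CPM with vehicle and 53.7, 51.3 and 52.3 CPM with Act D in HCT 116p53-/- cells. In the libraries labelled RPL3 KO it was 97.1, 125 and 98.9 and then 149, 175 and 150 CPM. It rose without overlap in both, by 1.11 ± 0.12 (adjusted p = 3.60e-06) and 0.56 ± 0.11 (adjusted p = 0.00222), from a level above that of the Act D-treated HCT 116p53-/- cells. The difference of the rises, -0.56 (adjusted p = 0.0442), was lost when any of 8 single libraries was left out (adjusted p up to 0.111).

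BBC3 encodes PUMA, another BH3-only protein. It was 6.68, 13.8 and 7.61 CPM with vehicle and 19.6, 24.1 and 17.9 CPM with Act D in HCT 116p53-/- cells (1.14 ± 0.23, adjusted p = 0.00199), and 6.27, 6.91 and 8.10 and then 9.82, 5.48 and 6.03 CPM in the libraries labelled RPL3 KO (0.04 ± 0.26, adjusted p = 0.944). Groups overlapped in the second line, and the interaction of -1.10 did not pass (adjusted p = 0.0696), though it did with DESeq2, with the likelihood-ratio test, without a filter, and without vehicle replicate 2 of HCT 116p53-/- or Act D replicate 1 of the libraries labelled RPL3 KO. BAX, the pore-forming effector, had log2 fold changes of 0.29 (adjusted p = 0.130) and 0.09 (adjusted p = 0.736), and passed only in HCT 116p53-/- cells without vehicle replicate 2 (log2 fold change 0.42, adjusted p = 0.0401).

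PHLDA3, an inhibitor of AKT (chr1:201464278-201469237), was 18.0, 17.8 and 20.2 CPM with vehicle and 44.2, 50.6 and 43 CPM with Act D in HCT 116p53-/- cells (1.30 ± 0.13, adjusted p = 2.00e-06). Libraries labelled RPL3 KO stood at 1.29, 0.701 and 0.810 and then 0.655, 0.685 and 0.232 CPM, close to that floor of 3 counts. The log2 fold change there was -0.71 with a 95% interval from -1.50 to 0.08 (adjusted p = 0.263). The responses differed by -2.01 (adjusted p = 0.00497), the largest interaction of the p53 targets past the threshold, and another gene shares 18.4% of PHLDA3's exon bases on the same strand. TP53INP1, which takes part in p53-dependent apoptosis and autophagy, was 17.6, 13.2 and 17.5 CPM with vehicle and 44.2, 43.3 and 44.6 CPM with Act D (1.45 ± 0.16, adjusted p = 7.15e-06). In the libraries labelled RPL3 KO it was 0.562, 1.75 and 2.03 and then 2.04, 2.40 and 1.86 CPM, and the difference of responses of -0.98 did not pass (adjusted p = 0.109), though it did with DESeq2, with the likelihood-ratio test, without a filter and without vehicle replicate 1 of the libraries labelled RPL3 KO.

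AEN, an apoptosis-enhancing nuclease, moved in opposite directions. It was 128, 132 and 118 CPM with vehicle and 186, 189 and 180 CPM with Act D in HCT 116p53-/- cells. It was 201, 191 and 155 and then 111, 118 and 140 CPM in the libraries labelled RPL3 KO. Neither pair of groups overlapped, and it rose by 0.56 ± 0.10 (adjusted p = 0.000819) and fell by 0.57 on the log2 scale (adjusted p = 0.00110), a difference of -1.13 (adjusted p = 0.000221). TRIAP1, a small inhibitor of apoptosome assembly, was 43.6, 39.9 and 39.5 CPM with vehicle and 55, 59.2 and 49.8 CPM with Act D, and 13.7, 17.6 and 15.1 and then 10.9, 10.3 and 11.4 CPM in the other line. It rose by 0.41 and fell by 0.52 on the log2 scale (adjusted p = 0.00778 and 0.00918, interaction -0.93, adjusted p = 0.00210). The rise was lost without Act D replicate 2 of HCT 116p53-/- (adjusted p = 0.0551) and the fall without vehicle replicate 2 of the libraries labelled RPL3 KO (adjusted p = 0.0511).

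The other apoptosis and survival genes moved little. NINJ1, which ruptures the plasma membrane of dying cells, and the quinone oxidoreductase TP53I3 rose in HCT 116p53-/- cells by 0.43 and 0.47 (adjusted p = 0.0175 and 0.0348), calls lost when any of 3 and of 4 single libraries was left out (adjusted p up to 0.0738 and 0.150). ZMAT3, RPS27L, SUSD6 and CYFIP2 did not pass in either line with edgeR's quasi-likelihood test, with log2 fold changes from 0.20 to 0.42 in HCT 116p53-/- cells and from -0.35 to 0.33 in the libraries labelled RPL3 KO. In HCT 116p53-/- cells RPS27L (adjusted p = 0.0548) passed in 7 of 15 other settings, DESeq2 and the likelihood-ratio test among them, and ZMAT3 (adjusted p = 0.0723) passed in 2, with upper-quartile scaling and without vehicle replicate 3.

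Of the 5 DNA repair genes, 4 rose and 1 fell in HCT 116p53-/- cells, and 3 rose in the libraries labelled RPL3 KO. XPC, the damage sensor of global nucleotide excision repair, was 38.8, 42.9 and 36.0 CPM with vehicle and 53.2, 49.9 and 52.0 CPM with Act D in HCT 116p53-/- cells. It was 30.5, 26.9 and 28.1 and then 43.3, 46.9 and 49.4 CPM in the libraries labelled RPL3 KO. It rose without overlap in both, by 0.40 ± 0.09 (adjusted p = 0.00521) and 0.71 ± 0.10 (adjusted p = 9.87e-05). Of the 29 genes, picked by their rise in HCT 116p53-/- cells, XPC was the 1 gene whose rise was not smaller in the libraries labelled RPL3 KO. The difference did not pass (0.31, 95% interval 0.03 to 0.59, adjusted p = 0.184). XPC shares 24.6% of its exon bases with the antisense gene XPC-AS1, and without strand their reads cannot be told apart.

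POLH, the translesion polymerase eta, was 29.7, 33.5 and 30.9 CPM with vehicle and 62.1, 54.2 and 62.4 CPM with Act D, and 12.9, 13.4 and 13 and then 17.5, 17.2 and 17.7 CPM in the libraries labelled RPL3 KO. It rose by 0.93 and 0.42 (adjusted p = 1.94e-06 and 0.0131), and the second call was lost without Act D replicate 3 (adjusted p = 0.0587). That call was also lost with scaling by library size alone, without a filter and with only the 2 groups compared (adjusted p up to 0.0826). The interaction of POLH of -0.51 (adjusted p = 0.0332) was lost when any of 7 single libraries was left out (adjusted p up to 0.0960). RRM2B, a ribonucleotide reductase subunit for repair, rose by 0.41 and 0.31 (adjusted p = 0.00131 and 0.0322), the second lost when any of 5 single libraries was left out (adjusted p up to 0.141). It was also lost in 4 other settings, scaling by library size alone among them (adjusted p up to 0.256). DDB2, which recognises UV lesions and whose window above held the pair without a mismatch, rose by 0.44 in HCT 116p53-/- cells (adjusted p = 0.0318), a call lost when any of 4 single libraries was left out (adjusted p up to 0.130), and had a log2 fold change of 0.31 in the other line (adjusted p = 0.215).

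ASCC3, a helicase of alkylation repair and of ribosome rescue, fell in HCT 116p53-/- cells. Its CPM were 162, 148 and 138 with vehicle and 109, 97.7 and 119 with Act D, which did not overlap (-0.46 ± 0.10, adjusted p = 0.00290). The libraries labelled RPL3 KO had CPM of 61.9, 70.5 and 76.1 and then 78.0, 81.7 and 69.9, which did (0.14, adjusted p = 0.424). The interaction was 0.60 (adjusted p = 0.0159), lost without Act D replicate 2 of HCT 116p53-/- (adjusted p = 0.0536).

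Of the 10 genes of stress, redox balance and metabolism, 6 rose in HCT 116p53-/- cells, and in the libraries labelled RPL3 KO 1 rose and 1 fell. The sestrins SESN1 and SESN2 hold back mTORC1. SESN2 (chr1:28259518-28282491) was 12.9, 15.8 and 17.3 CPM with vehicle and 38.6, 40.8 and 42.5 CPM with Act D in HCT 116p53-/- cells. In the libraries labelled RPL3 KO it was 39.9, 38.5 and 29.9 and then 27.9, 24.4 and 21.3 CPM. Groups did not overlap in either line and stood in opposite order, with a rise of 1.41 ± 0.13 (adjusted p = 1.45e-06), a fall of 0.55 on the log2 scale (adjusted p = 0.0109) and a difference of -1.95 (adjusted p = 1.62e-05). SESN1 was 10.4, 10.3 and 7.91 CPM with vehicle and 20.6, 25.1 and 23.9 CPM with Act D, and 6.10, 6.91 and 6.95 and then 7.93, 10.4 and 7.65 CPM in the other line. It rose by 1.28 in HCT 116p53-/- cells (adjusted p = 7.07e-06), was higher in all 3 Act D libraries of the other line without passing (0.37, adjusted p = 0.165), and its interaction of -0.91 (adjusted p = 0.0168) was lost without Act D replicate 1 of the libraries labelled RPL3 KO (adjusted p = 0.0555).

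TIGAR, which lowers glycolytic flux, was 26.7, 22.2 and 24.0 CPM with vehicle and 55.2, 49.2 and 52.1 CPM with Act D in HCT 116p53-/- cells, and 13.7, 14.9 and 11.1 and then 18.6, 20.6 and 21.5 CPM in the libraries labelled RPL3 KO. It rose by 1.10 and 0.60 (adjusted p = 2.66e-06 and 0.00330, interaction -0.50, adjusted p = 0.0843). Both rises in CPM are uncertain. The mean per length went only from 11.9 to 14.9 TPM in HCT 116p53-/- cells, where the groups overlapped. In the libraries labelled RPL3 KO it went from 3.9 to 2.86 TPM. That fall rested on vehicle replicate 1, with 7.5, 2.34 and 1.87 TPM with vehicle and 2.84, 3.5 and 2.24 TPM with Act D. RSEM's posterior SD of the count reached 10.7%, and another gene shares 18.1% of TIGAR's exon bases on the same strand. GDF15, a secreted stress cytokine, was 25, 32.8 and 30.5 CPM with vehicle and 61.0, 84.9 and 53.4 CPM with Act D (1.18 ± 0.16, adjusted p = 5.21e-05). Libraries labelled RPL3 KO stood at 37.8, 26.8 and 28.9 and then 35.6, 29.5 and 31.8 CPM, overlapping groups (0.07, adjusted p = 0.856, interaction -1.11, adjusted p = 0.00716).

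FDXR, the mitochondrial ferredoxin reductase, and the lysosomal fucosidase FUCA1 rose in HCT 116p53-/- cells by 0.42 and 0.33 (adjusted p = 0.0149 and 0.0282). These calls were lost when any of 2 and of 5 single libraries was left out (adjusted p up to 0.0832 and 0.119). The carboxylesterase CES2, the hydrolase CMBL, the lipase ABHD4 and SPATA18, which takes part in mitochondrial quality control, did not pass in either line with the quasi-likelihood test. In HCT 116p53-/- cells ABHD4 (0.52, adjusted p = 0.0603) passed in 6 of 15 other settings, including DESeq2, the likelihood-ratio test and without Act D replicate 2. CMBL (0.41, adjusted p = 0.0609) passed in 4, including DESeq2 and, at an adjusted p of 0.000931, without vehicle replicate 3.

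KITLG encodes stem cell factor, the ligand of KIT (chr12:88492793-88580851), and was the most abundant p53 target per length in vehicle-treated HCT 116p53-/- cells, with a mean of 187 TPM. It was 1414, 1186 and 1286 CPM with vehicle and 519, 506 and 586 CPM with Act D, and so fell by 1.27 ± 0.11 on the log2 scale (log2 fold change -1.27, adjusted p = 6.07e-07) where most other targets rose. In the libraries labelled RPL3 KO it was 12, 16.6 and 17.1 and then 13.6, 17.2 and 13.8 CPM, overlapping groups (-0.06, adjusted p = 0.854, interaction 1.22, adjusted p = 0.000735). The vehicle level there was 1.18% of that of HCT 116p53-/- cells, beside corresponding shares of 0.666% for CDH1 and 1.2% for CDX2, and the level with Act D was 2.77%, beside 0.438% and 1.03%. Whether the low values are of the line itself or carried over from the other libraries was not tested. ANKRA2, an ankyrin-repeat adaptor, was 4.28, 4.61 and 3.56 CPM with vehicle and 6.79, 7.03 and 5.71 CPM with Act D in HCT 116p53-/- cells. Its rise of 0.65 (adjusted p = 0.0309) was lost when any of 4 single libraries was left out (adjusted p up to 0.125). Libraries labelled RPL3 KO had 2.17, 3.55 and 3.71 CPM of ANKRA2 with vehicle and 4.36, 4.80 and 4.64 CPM with Act D, which did not overlap (0.52, adjusted p = 0.139, interaction -0.13, adjusted p = 0.855). TRIM22, an interferon-induced ubiquitin ligase, was at most 1.37 CPM and did not pass.

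Between the lines, p53 targets were mostly lower in the libraries labelled RPL3 KO, and more so with Act D. With vehicle 11 were higher and 24 lower (81.4%, beside 71.3% of all genes tested, of which 35.1% were higher and 36.2% lower). With Act D 2 were higher and 32 lower (79.1%, beside 70.4% of all genes tested, of which 35.1% were higher and 35.3% lower). The 2 lines did not overlap for 35 genes with vehicle (81.4%, beside 72.5% of all genes tested) and for 37 with Act D (86.0%, beside 74.1%). The median log2 difference was -0.51 with vehicle and -0.82 with Act D, against -0.02 over all genes in both. The share past the threshold thus lay near that of all genes, and what set the p53 targets apart was direction, as a description. These comparisons use the same libraries as the Act D comparisons. Scaling by library size alone moved the median of all genes from -0.02 to -0.26 with vehicle and with Act D, and gave 8 higher and 27 lower with vehicle.

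**Figure D4:**
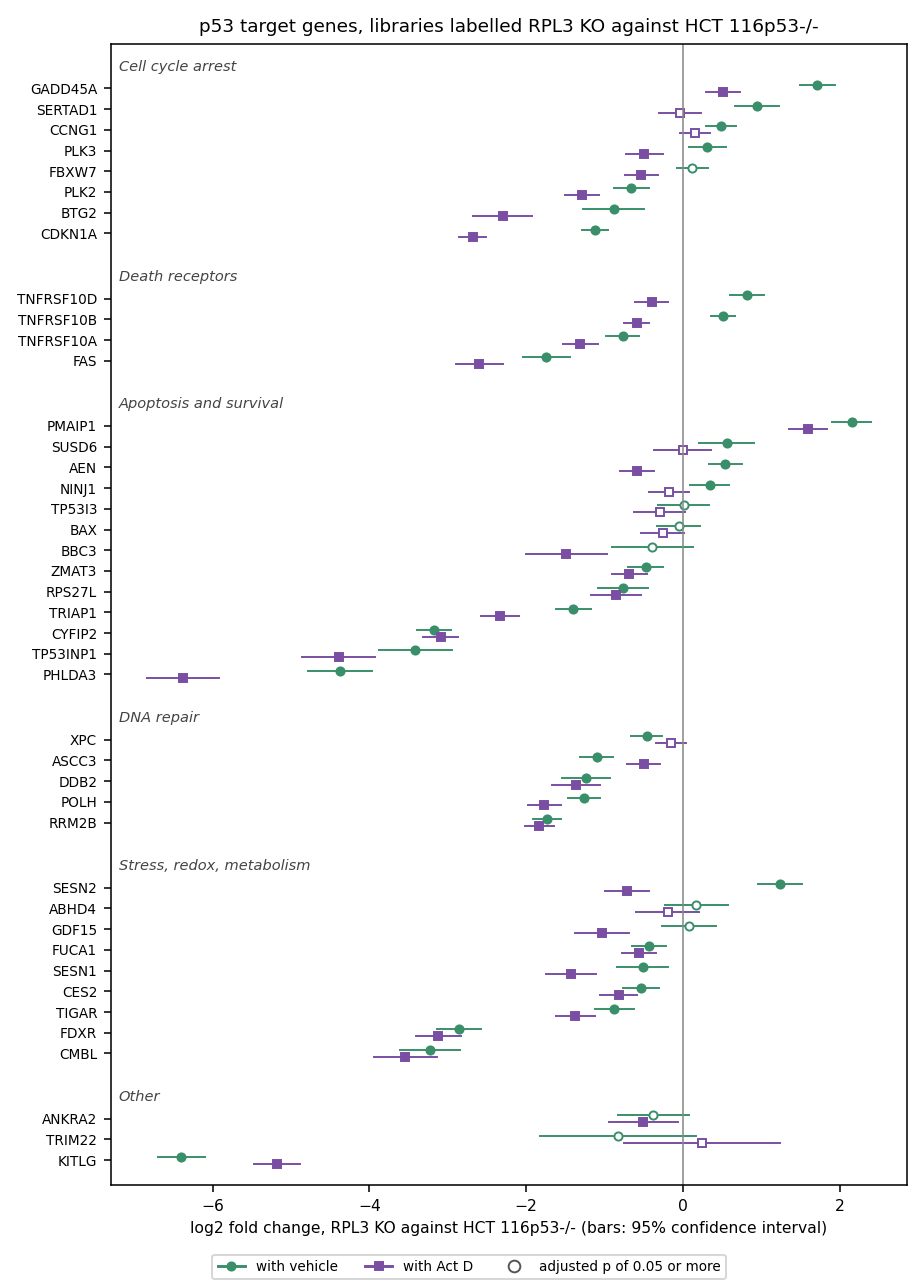
Log2 fold change of 42 p53 target genes in the libraries labelled RPL3 KO against HCT 116p53-/- cells (x axis), with vehicle (circles) and with Act D (squares), grouped by role, with 95% confidence intervals; filled symbols passed an adjusted p of 0.05. SPATA18 is left out because it had no count in the libraries labelled RPL3 KO. KITLG and PHLDA3 lie farthest left, at -6.40 and -6.38, and PMAIP1 farthest right, at 2.15.

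Of the 5 largest deficits, those of SPATA18, PHLDA3 and TP53INP1 were of genes near the floor in the libraries labelled RPL3 KO. KITLG and CMBL were well above it there, with at least 119 and at least 30 counts in each library. SPATA18 was 0.972, 0.826 and 1.09 CPM with vehicle in HCT 116p53-/- cells and had no count in any of the 6 other libraries, which makes it at least 4.86-fold lower with vehicle and at least 2.64-fold lower with Act D when 3 counts are set for each empty library. KITLG was lower by a log2 difference of -6.40 with vehicle and -5.18 with Act D (adjusted p = 1.94e-16 and 2.37e-15), and PHLDA3 by -4.37 and -6.38 (adjusted p = 9.96e-13 and 4.49e-14). TP53INP1 followed with -3.41 and -4.39 (adjusted p = 2.12e-10 and 6.53e-12). CMBL was 28.1, 30.4 and 46.6 CPM with vehicle and 45.7, 44.2 and 50.1 CPM with Act D in HCT 116p53-/- cells against 3.61, 4.15 and 3.38 and then 4.36, 4.00 and 3.48 CPM (-3.22 and -3.54, adjusted p = 2.74e-11 and 1.82e-11). No library of one line reached those of the other for these genes. CYFIP2, a regulator of actin, and FDXR were also lower, at -3.17 and -2.86 with vehicle.

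The genes higher in the libraries labelled RPL3 KO included PMAIP1 and GADD45A, which were higher both with vehicle (log2 differences 2.15 and 1.71) and with Act D (1.59 and 0.51). GADD45A no longer passed with Act D when scaled by library size alone (0.27, adjusted p = 0.0559). Its mean TPM with Act D was nearly equal, at 25.25 in the libraries labelled RPL3 KO against 25.30. SESN2 (1.24), SERTAD1 (0.94) and TNFRSF10D (0.82) were higher with vehicle, at adjusted p values of 1.84e-07, 5.08e-06 and 1.04e-06, but with Act D the differences were -0.72 (adjusted p = 0.000103), -0.05 (adjusted p = 0.765) and -0.40 (adjusted p = 0.00162). In all, 5 genes were higher with vehicle and lower with Act D by CPM, namely SESN2, TNFRSF10D, TNFRSF10B, AEN and PLK3, and 23 were lower under both. The shares of all genes with these patterns were not computed. By mean TPM with vehicle, SESN2 (5.80 against 3.46) and TNFRSF10D (30.4 against 24.4) were also higher in the libraries labelled RPL3 KO. AEN was nearly equal (34.9 against 33.8), and TNFRSF10B (29.7 against 31.3) and PLK3 (7.77 against 8.41) were lower, so that their order depends on the scaling. CDKN1A was lower by -1.13 with vehicle and by -2.68 with Act D, and FAS by -1.75 and -2.60. Per length, CDKN1A moved from the third highest p53 target in vehicle-treated HCT 116p53-/- cells (61.7 TPM) to the highest with Act D (200.4 TPM). In the sub-line CCNG1 was highest in both groups (50 and 53.8 TPM) and CDKN1A was at 20 and 22.6 TPM.

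Regulators of p53 moved with the targets in part. MDM2, the ubiquitin ligase of p53 and itself a target, was 326, 294 and 310 CPM with vehicle and 578, 551 and 629 CPM with Act D in HCT 116p53-/- cells. Libraries labelled RPL3 KO stood at 116, 99.3 and 106 and then 67.6, 83.3 and 67.9 CPM. It rose by 0.92 and fell by 0.55 on the log2 scale without overlap (adjusted p = 2.60e-06 and 0.000930, interaction -1.47, adjusted p = 1.48e-05). Of the 25 regulators tested, 2 rose and 7 fell in HCT 116p53-/- cells (36%, beside 18.7% of all genes tested) and 1 rose and 7 fell in the other line (32%, beside 11.9%). The phosphatase PPM1D rose (1.01) with MDM2 in HCT 116p53-/- cells, while the p53 relative TP73 fell by 1.48 on the log2 scale. The ubiquitin ligase COP1 (-0.91 and -0.46), the acetyltransferase CREBBP (-0.46 and -0.95) and the deubiquitinase USP7 (-0.36 and -0.54) fell in HCT 116p53-/- cells and in the libraries labelled RPL3 KO, while EP300, a relative of CREBBP, fell in the latter (-0.53) and stood at -0.05 in the former (adjusted p = 0.769). In HCT 116p53-/- cells the calls of CREBBP and USP7 were lost when any of 2 and 1 single libraries was left out (adjusted p up to 0.0651 and 0.0598).

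Of 38 further p53 targets, 16 rose and 3 fell in HCT 116p53-/- cells (50%, beside 18.7% of all genes tested, median 0.37), and 1 rose and 5 fell in the libraries labelled RPL3 KO (15.8%, near the 11.9% of all genes tested, median 0.00). IER5 (1.15), the ceramidase ACER2 (1.14) and PPM1D had the 3 largest log2 fold changes among those past the threshold in HCT 116p53-/- cells. ACER2 was the gene that rose in the other line (1.18, adjusted p = 0.0164), where PLCL2 (-0.66), MDM2 and TSKU (-0.51) fell, and the calls of ACER2 and TSKU there were each lost when either of 2 single libraries was left out (adjusted p up to 0.108 and 0.0628). Of 15 genes of the integrated stress response, which ATF4 drives and which include inducers of some p53 targets, 3 rose and 3 fell in HCT 116p53-/- cells (40%) and none rose and 7 fell in the other line (46.7%). Among them ATF3 rose by 1.33 and PPP1R15A by 0.56 in HCT 116p53-/- cells. CEBPB was 7.0, 8.88 and 8.63 CPM with vehicle and 9.84, 19.5 and 9.33 CPM with Act D there. Its log2 fold change of 0.66 (adjusted p = 0.0488) was 0.23 without Act D replicate 2 (adjusted p = 0.420) and the call was also lost without any 1 of the 3 vehicle libraries. CHAC1 (-0.70 and -1.54) and TRIB3 (-0.41 and -0.60) fell in both lines, and SLC7A11 (-0.81) and CEBPB (-0.69) fell in the libraries labelled RPL3 KO. The falls of CHAC1 and TRIB3 in HCT 116p53-/- cells and of CEBPB in the other line were each lost when any of 4 single libraries was left out (adjusted p up to 0.148, 0.113 and 0.138). Of 19 cell cycle genes that p53 represses through p21 and the DREAM complex, 0 passed in the libraries labelled RPL3 KO in edgeR's quasi-likelihood test, 5 had an unadjusted p under 0.05, and 0 passed with DESeq2 or the likelihood-ratio test.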

How the data were processed

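RNA of 12 libraries was prepared with a TruSeq kit, whose strand setting is not given in the sources used here, and read from both ends. The authors removed adapters and contaminants and counted reads per Ensembl gene on hg38 (RSEM 1.2.25, the version per the submitters' processing notes). They deposited expected counts, which divide reads that fit several genes, TPM values, and a posterior SD of each count. HCT 116p53-/- vehicle replicate 2 was deposited per transcript (226788 rows), and its counts were summed to genes.

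Counts were rounded, filtered with filterByExpr (15692 of 33990 genes with any count kept), scaled with TMM (factors 0.847 to 1.148) and fitted together with 1 coefficient for each group in edgeR 4.0.16 (R 4.3.3). Each comparison used edgeR's quasi-likelihood test, two-sided, with Benjamini-Hochberg adjustment over all genes tested. SE and 95% intervals came from the same fit. p-values measure the spread of these cultures of each line only. 3 counts, a bound for counting error only, were set as the floor of detection. Gene positions came from GENCODE v44. 21 of the 44 genes share exon bases with another gene, 18 of them on the opposite strand. Results of a few genes outside the 44 are not reported here. The members and lists were chosen with earlier results of these data known. Genes described with every library passed with a log2 fold change of at least 0.58 with Act D or in the interaction, or were among the 5 largest differences of the lines in each direction, and TNFRSF10A, FDXR and others are given by their tests. The alternatives were DESeq2 1.42.0, the likelihood-ratio test, 3 other scalings, 2 other filters, the 2 groups compared alone, a replicate block, a log2 fold change of at least 1, and each library left out. The scripts were tested on simulated data, where fold changes showed no bias, false calls were somewhat above the nominal rate and the interaction recovered fewer changes than the other comparisons.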

Additional observations from a re-analysis of the deposited data

Results flagged for a closer look

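The response to Act D differed between the lines for 21 p53 target genes, each by the interaction term of edgeR's quasi-likelihood test at an adjusted p under 0.05, beside 6.53% of all genes tested. The value is the log2 response of the libraries labelled RPL3 KO minus that of HCT 116p53-/- cells. Among genes of arrest it was -1.56 for CDKN1A, -1.41 for BTG2, -1.20 for GADD45A, -0.99 for SERTAD1, -0.80 for PLK3, -0.65 for FBXW7 and -0.63 for PLK2. Among death receptors it was -1.22 for TNFRSF10D, -1.10 for TNFRSF10B, -0.85 for FAS and -0.54 for TNFRSF10A. In the apoptosis and survival group it was -2.01 for PHLDA3, -1.13 for AEN, -0.93 for TRIAP1 and -0.56 for PMAIP1. Of the genes of stress and repair, SESN2 had -1.95, GDF15 -1.11, SESN1 -0.91 and POLH -0.51. Only ASCC3 (0.60) and KITLG (1.22), which fell with Act D in HCT 116p53-/- cells, had a positive value among the 21. AEN, TRIAP1 and SESN2 moved past the threshold in opposite directions in the 2 lines. In all 21 the lines also differ in the markers given with the data, and the part of that in the responses was not tested.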

How the results depend on the processing

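No p53 target that passed turned its direction under any alternative run. A further threshold of a log2 fold change of at least 1 left 16 genes with Act D in HCT 116p53-/- cells, 0 in the libraries labelled RPL3 KO (edgeR's quasi-likelihood test, 13 with DESeq2 and 12 with the likelihood-ratio test without that threshold), 10 in the interaction, and 17 and 21 between the lines with vehicle and Act D. Leaving out 1 library gave 25 to 31, 9 to 11, 17 to 22, 34 to 35 and 33 to 35 genes in the same order. Every other setting stayed within 1.5 times the main count, and the counts were 24 to 35, 9 to 13, 18 to 24, 34 to 35 and 33 to 37. Of the genes that passed, 24 of 31, 7 of 12, 15 of 21, 32 of 35 and 32 of 34 passed under every alternative other than the further threshold. Between the lines, the calls of ANKRA2 with Act D, and of NINJ1 and PLK3 with vehicle, were lost without single libraries (adjusted p up to 0.104, 0.0519 and 0.0580). Scaling by library size alone also ended calls with Act D in HCT 116p53-/- cells of ANKRA2, DDB2, FDXR, FUCA1, NINJ1, TP53I3 and TRIAP1 (adjusted p from 0.0605 to at most 0.154), and between the lines with vehicle of NINJ1 and SUSD6 (adjusted p = 0.536 and 0.130) and PLK3 (adjusted p up to 0.657). Beyond the results given above, 1 setting each brought TNFRSF10B with Act D in the libraries labelled RPL3 KO (library size alone, adjusted p = 0.0310) and the interactions of CCNG1, NINJ1, SUSD6 and TIGAR (adjusted p down to 0.0317) past the threshold. Same-numbered libraries correlated at 0.0996 to 0.181 between treatments in HCT 116p53-/- cells and at -0.201 to -0.0396 in the other line. Libraries with unlike numbers correlated at -0.319 to 0.154 and at -0.0931 to 0.170. These ranges overlap in both lines, so that whether the numbers pair the libraries was not settled. The replicate numbers are those of the titles, and the descriptions number the Act D libraries labelled RPL3 KO differently. With the replicate number as a block 30, 10, 18, 35 and 33 genes passed. At these depths 3 counts correspond to at most 0.348 CPM, which limits PHLDA3, TP53INP1, SPATA18, TRIM22 and TNFRSF10C in particular.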
